A study of Oryza sativa with 4 samples.

Results

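The genes described here are the BGIOSGA identifiers whose transcript level was at least 2-fold higher in the chilling-tolerant rice line DC90 than in its parent 9311, both before and after chilling, and which lie outside the 3 ranges of identifier numbers where line differences gather. There were 49 of them among 40745 BGIOSGA identifiers, in a table of 88509 identifiers in all. They were chosen by a log2((FPKM + 1)/(FPKM + 1)) of DC90 over 9311 of at least 1 at 0 h and again at 36 h, after leaving out the numbers 10224 to 10354, 12710 to 13206 and 36041 to 37534. FPKM is the read count of a gene scaled to its length and to the library total. The line ratios are therefore given below as a description and carry no test.

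Whole seedlings at the 3-leaf stage were taken from DC90, a chromosome substitution line with tolerance to chilling, and from 9311, also labelled YD6, its chilling-sensitive recurrent parent. Both lines were sampled before chilling and at 36 h of it, and the RNA of 3 replicates was mixed in equal amounts into 1 library for each line and time. Each value is thus that of 1 pool, no difference has a replicate check, and "higher" and "lower" describe these 4 libraries. The libraries held between 10580163 and 11800685 reads. No seedlings kept without chilling until 36 h are among the samples, so age and time of day cannot be told apart from chilling. In whole seedlings, more cells of a type and more RNA per cell also cannot be told apart.

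A chromosome substitution line carries segments of a donor's chromosomes in the genetic background of a recurrent parent. Breeders use such lines to trace a trait of the donor to a segment, since line and parent share the rest of the genome. Rice is of tropical origin, and its seedlings are injured by cool temperatures above freezing, to which tolerant and sensitive varieties respond with broad changes in transcripts. The sources used here do not pair the identifiers with gene names, functions or positions. Of all 88509 identifiers, 0 were found in the RefSeq gene table, so the 0 of 49 members found there is no trait of the members. No role is given for any of them, and the seedling tissue was not checked against marker genes.

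The members fell into 3 classes by their level in the parent. In 20 of the 49, or 40.8%, no read was counted in either 9311 library. Another 10 stayed below an FPKM of 1 in both 9311 libraries without being at 0 in both, and 19 reached an FPKM of 1 or more in at least 1 of them. In DC90 the levels were mostly modest, with a median FPKM of 7.56 at 0 h and 8.44 at 36 h. The corresponding medians in 9311 were 0.0787 and 0.195. Across all 24192 BGIOSGA identifiers with an FPKM of at least 1 in any library, the median lay between 11.7 and 12.1 in each of the 4 libraries. The direction of the contrast between lines follows from the choice of the members.

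**Figure D1:**
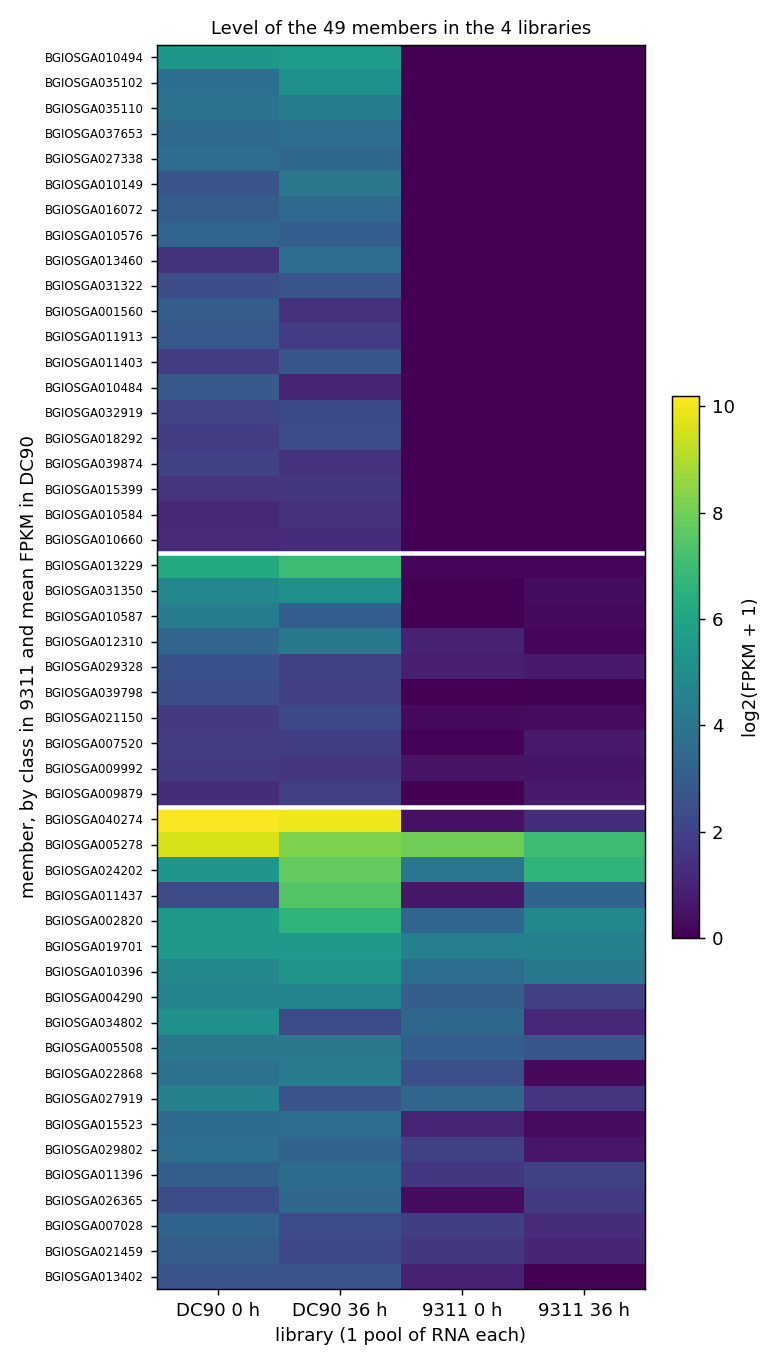
Heat map of the level, as log2(FPKM + 1), of the 49 members (rows) in the 4 libraries (columns, 1 pool of RNA each). White lines separate the 20 members listed at 0 in both 9311 libraries, the 10 below an FPKM of 1 in both, and the 19 at 1 or more in at least 1; within a class, rows run from the highest to the lowest mean FPKM in DC90, and the brightest row is BGIOSGA040274, at 1114 and 993 in DC90.

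The highest level, and the widest line difference on the log2(FPKM + 1) scale, belonged to BGIOSGA040274. It stood at an FPKM of 1114 in DC90 before chilling and at 993 after 36 h, against 0.406 and 1.54 in 9311. DC90 was 1.12-fold lower after chilling, and the 9311 libraries were both close to 0, with 2 reads before chilling and 7 after it where DC90 had 5438 and 4381. The ratio of DC90 to 9311 was 2740.1 at 0 h, with a 95% counting interval from 758 to 22632, and 645 at 36 h, from 313 to 1605. Among all BGIOSGA identifiers it ranked 100 by FPKM in DC90 at 0 h and 75 at 36 h, and it took 0.0464% and 0.0414% of the reads of these libraries. The second most abundant member, BGIOSGA005278, was abundant in both lines. Its FPKM in DC90 was 759 before and 303 after chilling, and in 9311 it was 256 and 129. All 4 values were high, DC90 was above 9311 at each time, and both lines were lower after chilling. These members made up most of the summed level of the 49. The sum was 2489 in DC90 at 0 h and 2389 at 36 h, and 616 and 1093 without them.

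In the class without a read in 9311, the most abundant member was BGIOSGA010494, at an FPKM of 40.8 before and 47.9 after chilling in DC90, from 245 and 260 reads. With 9311 set at 3 reads per library, the limit that a count of 0 allows, DC90 was at least 82.3-fold higher at 0 h and at least 89.3-fold higher at 36 h. Such limits cover only the counting error of the 0 in 9311. The DC90 reads are taken as they stand, so limits from few DC90 reads are too high. BGIOSGA035110 was at 13.6 and 19.0 in DC90, at least 48.7-fold and at least 62.9-fold higher than 9311. BGIOSGA027338 was at 11.7 and 9.99, and BGIOSGA037653 was at 10.6 and 11.8. The 2 times were within 2-fold of each other in these 4 members. BGIOSGA035102 was beyond 2-fold, at 12.3 before and 33.8 after chilling, from 41 and 102 reads.

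The rest of this class was lower. Of its 20 members, 4 had an FPKM of 10 or more in both DC90 libraries, 6 stayed under 5 in both, and 9 had fewer than 20 reads in at least 1 DC90 library. Among the 19 members with more than 3 reads in DC90 at 0 h, the lower limit of the ratio ran from 1.68-fold to 82.3-fold, with a median of 11.1-fold. At 36 h the limit could be given for 18 members and had a median of 12.4-fold. The lowest limits rested on 5 reads in DC90 at 0 h, in BGIOSGA011913 and BGIOSGA013460. At 36 h they rested on 4 reads, in BGIOSGA010484 and BGIOSGA039874. Since these limits leave out the counting error of DC90, a difference from 9311 is not shown there. At the low end, BGIOSGA010660 was at 1.31 and 1.45 in DC90 on 1 recovered read in each library, the smallest count that fits. At that count a difference from 9311 was not detectable. Its recovered length of 65 bases is not a multiple of 3, and the true count may be larger. Identifiers at an FPKM of 1 or more in both DC90 libraries and listed at 0 in both of 9311 numbered 41 in the whole table, which is 0.2% of the 20549 at that level in DC90. Any such identifier passes the rule by construction. Of the 41, these 20 lay outside the left-out ranges and 21 inside them.

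The 10 members with traces of signal in 9311 included BGIOSGA013229, second to BGIOSGA040274 in line difference on the log2(FPKM + 1) scale. It was at an FPKM of 73.8 before and 125 after chilling in DC90, and at 0.127 and 0.137 in 9311, where each value came from 1 read. The ratio of DC90 to 9311 was 582 at 0 h, with a counting interval from 104 to 23047, and 911 at 36 h, from 163 to 36015. At 36 h that ratio was above the 645 of BGIOSGA040274, and its interval, set by 1 read, includes that value. BGIOSGA031350 was at 25.7 and 33.4 in DC90, and at 0 and 0.266 in 9311, the latter again 1 read. In these genes both 9311 libraries were at or next to 0 while both DC90 libraries were well measured. BGIOSGA010587 was at 19.2 in DC90 before chilling and 7.22 after it, and at 0 and 0.212 in 9311. BGIOSGA012310 was at 9.16 and 16.5 in DC90, and at 0.977 and 0.106 in 9311. Its 9311 values rested on 10 reads and 1 read, and the line ratio went from 9.37 at 0 h, with an interval from 4.88 to 20.2, to 156 at 36 h, from 27.5 to 6185. BGIOSGA029328 was lower throughout, at 4.92 and 2.95 in DC90 and 0.813 and 0.660 in 9311. In BGIOSGA009992 the 36 h line ratio rested on 8 reads in DC90 and 2 in 9311. Its interval, from 0.822 to 39.8, includes no difference.

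Among the 19 members with an FPKM of 1 or more in 9311, the line difference was mostly a matter of degree. The ratio of DC90 to 9311 had a median of 3.33 at 0 h. At 36 h it had a median of 3.59 in the 18 members with a read in 9311. The median was 3.70 with BGIOSGA013402, which had no read there, at 4.81, its 0 set at 3 reads. It was under 4 for 13 of the 19 at 0 h and for 11 of the 18 at 36 h. BGIOSGA002820 was at an FPKM of 44.4 and 98.7 in DC90 and at 9.12 and 26.0 in 9311. The line ratio was 4.87 at 0 h, with an interval from 3.46 to 6.99, and 3.80 at 36 h, from 3.06 to 4.74. BGIOSGA024202 was at 40.4 and 214 in DC90 and at 15.2 and 97.0 in 9311, with line ratios of 2.65 and 2.20. Both lines thus had these transcripts, both had more of them after chilling, and DC90 was above 9311 at each time.

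**Figure D2:**
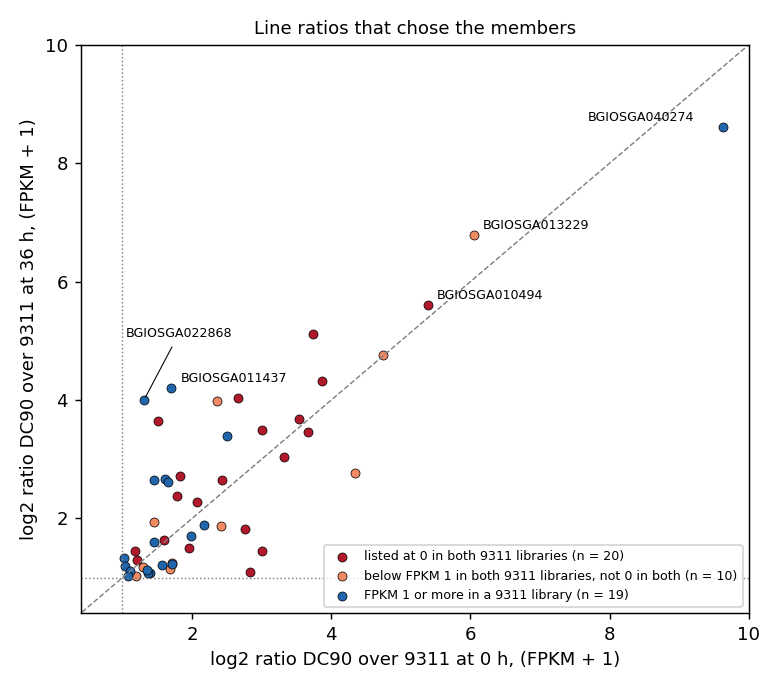
Log2 ratio of DC90 over 9311, on FPKM + 1, at 0 h (horizontal) and at 36 h (vertical) for the 49 members, coloured by class in 9311; dotted lines mark the rule's threshold of 1 and the dashed line equal ratios. BGIOSGA040274 lies apart at 9.63 and 8.61, and BGIOSGA022868 and BGIOSGA011437 lie above the dashed line, with larger ratios at 36 h on this scale.

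The line ratios reached well beyond the threshold in some members and sat close to it in others. On the log2(FPKM + 1) scale, both ratios were at least 2 in 16 members and at least 4 in 4 members, and the smaller one was under 1.5 in 22. The nearest inside the threshold were BGIOSGA005508, with ratios of 1.02 and 1.33, and BGIOSGA027919, with 1.09 and 1.03. The nearest outside were BGIOSGA010529, listed at 0 in 9311, with 0.99 and 1.06, and BGIOSGA002354, with 0.98 and 1.24. The ratio was the larger one at 36 h in 27 members and at 0 h in 22. At a single time the rule was passed upward by 1.59% of all BGIOSGA identifiers measured at 0 h and by 1.82% at 36 h. Outside the left-out ranges these were 289 identifiers at 0 h and 333 at 36 h, so that the 49 members are 17.0% of the first list and 14.7% of the second.

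The response to chilling, that is, each line's level at 36 h relative to its own level at 0 h, was not set by the rule, although it is read from the same libraries. In DC90, 7 of the 49 members were at least 2-fold higher after chilling and 6 at least 2-fold lower on the log2(FPKM + 1) scale, while 36 stayed within that bound. That is 14.3% and 12.2% of the members, next to 14.5% higher and 15.3% lower over all BGIOSGA identifiers measured in DC90. With an FPKM of at least 1 at both times, which the rule demands of DC90, the shares over all BGIOSGA identifiers were 13.2% higher and 13.2% lower. The median size of the log2 response was 0.49 in the members and 0.58 over those 20549 identifiers. The members' shares were thus near the background. By class, 5 of the 20 members without reads in 9311 passed the bound in DC90, 1 of the 10 with traces, and 7 of the 19 with signal in both lines.

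The highest response belonged to BGIOSGA011437. Its FPKM in DC90 was 4.20 before and 178 after chilling, from 14 and 538 reads, and in 9311 it was 0.595 and 8.69, from 2 and 27 reads. It was higher after chilling in both lines, by a ratio of 42.5 in DC90, with a counting interval from 25.1 to 78.3, and of 14.6 in 9311, from 3.67 to 127. The line ratio was 7.05 at 0 h, with an interval from 1.62 to 64.0 that reflects the 2 reads of 9311, and 20.5 at 36 h, from 14.0 to 31.4. By rank among BGIOSGA identifiers in DC90 it went from 17372 to 1076. BGIOSGA024202, given above, came next on the log2(FPKM + 1) scale, 5.29-fold higher after chilling in DC90 and 6.36-fold higher in 9311. BGIOSGA013460, without a read in 9311, went from an FPKM of 1.85 to 11.5 in DC90, on 5 and 28 reads, a ratio of 6.20 with an interval from 2.36 to 20.6. The other 4 members past the bound upward in DC90 were BGIOSGA002820, BGIOSGA010149, BGIOSGA026365 and BGIOSGA035102, with log2 responses from 1.10 to 1.39.

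Lower after chilling in DC90 were BGIOSGA001560, BGIOSGA005278, BGIOSGA010484, BGIOSGA010587, BGIOSGA027919 and BGIOSGA034802. The lowest response was that of BGIOSGA034802, at an FPKM of 33.3 before and 4.10 after chilling in DC90 and at 9.53 and 1.18 in 9311. It was 8.13-fold lower after chilling in DC90, with an interval from 6.59 to 10.1, and 8.09-fold lower in 9311, from 5.50 to 12.3. DC90 and 9311 thus lost nearly the same fraction of this transcript, and the line ratio was 3.50 before and 3.48 after chilling. BGIOSGA027919 was similar in this respect, at 21.1 and 5.14 in DC90 and at 9.42 and 2.01 in 9311, 4.11-fold and 4.69-fold lower. BGIOSGA010484, without a read in 9311, was at 6.15 and 1.14 in DC90, where the 36 h value rested on 4 reads.

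In 9311 a response could be read for the 19 members with an FPKM of 1 or more there. Of these, 4 were at least 2-fold higher after chilling and 6 at least 2-fold lower, or 21.1% and 31.6%, next to 16.1% and 18.2% over all BGIOSGA identifiers measured in 9311. All 4 of the higher ones, BGIOSGA002820, BGIOSGA011437, BGIOSGA024202 and BGIOSGA026365, passed the bound upward in DC90 as well. The 9311 values of BGIOSGA026365 rested on 1 read before and 8 reads after chilling. Of the 6 lower ones, BGIOSGA027919 and BGIOSGA034802 passed it downward in DC90 and the other 4 did not pass it there in either direction. Among those 4, BGIOSGA022868 had the lowest log2 response, -2.25. It was at an FPKM of 4.68 before and 0.195 after chilling in 9311, from 26 reads and 1 read, and at 13.1 and 18.1 in DC90. In 9311 it was 24.0-fold lower, with a counting interval from 3.95 to 985, while in DC90 it was 1.38-fold higher, from 1.004 to 1.91. The others were BGIOSGA004290, BGIOSGA013402 and BGIOSGA029802, with log2 responses in 9311 from -1.38 to -1.02 and in DC90 from -0.43 to 0.04. Their 9311 values rested on 20, 3 and 6 reads at 0 h and on 7, 0 and 1 reads at 36 h. For BGIOSGA029802 the counting interval in 9311, from 0.672-fold to 255-fold lower, includes no difference. No member passed the bound in opposite directions in the 2 lines.

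**Figure D3:**
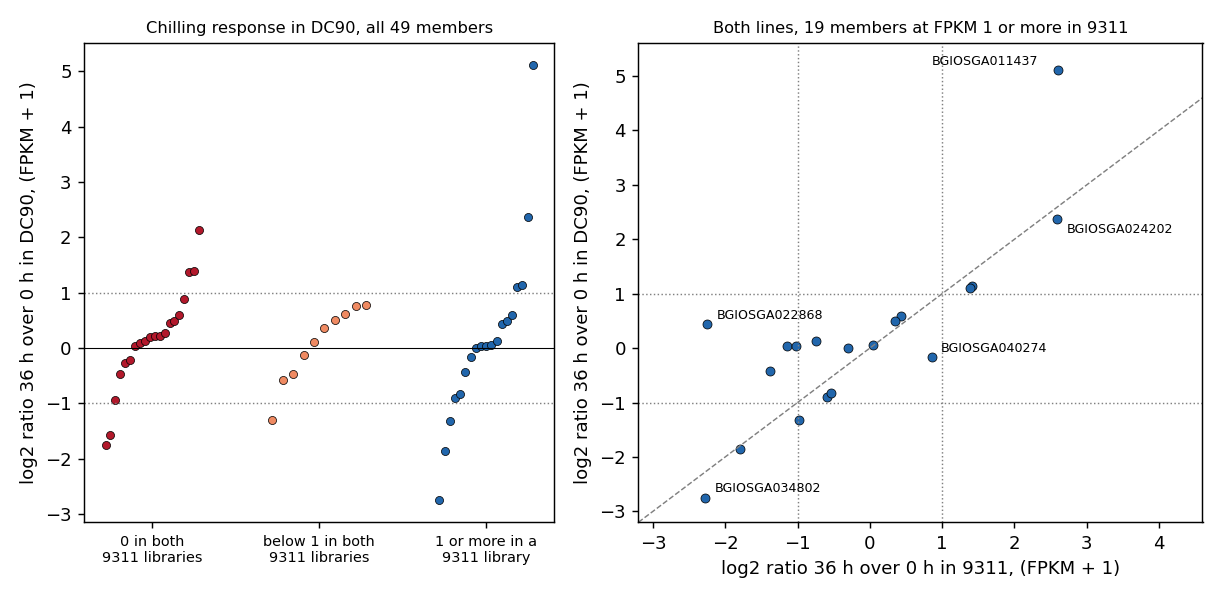
Chilling response as log2 of 36 h over 0 h on FPKM + 1. Left, DC90 alone, all 49 members by class in 9311 (horizontal spread only separates points); right, DC90 (vertical) against 9311 (horizontal) for the 19 members at an FPKM of 1 or more in 9311, with dotted lines at -1 and 1 and a dashed line of equal responses. BGIOSGA011437 is at 5.11 in DC90 and 2.60 in 9311, and BGIOSGA022868 is at 0.44 and -2.25.

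The difference of the 2 responses equals the change in the line ratio between the times, so it restates the values that chose the members. It was at least 1 in log2 for 8 members and at most -1 for 4, where 3.75% and 4.51% of all BGIOSGA identifiers measured passed these bounds. Upward were BGIOSGA004290, BGIOSGA010149, BGIOSGA011437, BGIOSGA012310, BGIOSGA013402, BGIOSGA013460, BGIOSGA022868 and BGIOSGA035102. BGIOSGA010149, BGIOSGA013460 and BGIOSGA035102 had no read in 9311 at either time, and BGIOSGA013402 had none at 36 h, so for these 4 the value depends on the pseudocount and a wider line ratio after chilling is not shown. BGIOSGA022868 had the largest value, 2.69, and 4.48 with a pseudocount of 0.1, with a level in 9311 that was lower after chilling. BGIOSGA012310 had 1.62, and 3.23 with a pseudocount of 0.1. In both, 9311 had 1 read at 36 h, so the size depends on the pseudocount. In BGIOSGA004290 the counting intervals of the responses in the 2 lines overlap. BGIOSGA011437 had 2.51, and 1.72 with a pseudocount of 0.1, and the counting intervals of its responses in the 2 lines overlap. Downward were BGIOSGA001560, BGIOSGA010484, BGIOSGA010587 and BGIOSGA040274. BGIOSGA001560 and BGIOSGA010484 had no read in 9311 at either time, and BGIOSGA010587 had none at 0 h and 1 at 36 h. Their values too depend on the pseudocount, and a narrower line ratio after chilling is not shown. In BGIOSGA040274 the value of -1.02 came from 2 reads before and 7 reads after chilling in 9311, a ratio of 3.79 with an interval from 0.721 to 37.4. That interval includes no difference.

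The members were short. The length behind the FPKM, recovered from the steps of the values, was a multiple of 3 bases, as coding lengths are, in 47 of the 49. That is 95.9% of the members, next to 99.1% of all measured BGIOSGA identifiers. The recovered length had a median of 408 bases in the members and of 1026 bases over the 24192 measured BGIOSGA identifiers. It was under 500 bases in 61.2% of the members and in 19.2% of the measured identifiers. Lists chosen in a like way were also below the median of all, at 690 bases for the 48 identifiers higher in DC90 inside the ranges and 687 bases for the 65 lower ones outside them. Recovered lengths are the smallest that fit, and where reads are few a common factor can be lost, which shortens them. With at least 100 reads in the deepest library, the median was 633 bases in 16 members and 1158 bases in 16041 identifiers. The members' median of reads in the deepest library was 56, against 211, and 30 members had at least 20 reads in each DC90 library. The part of length and depth in the line ratios was not tested.

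In the order of identifier numbers the members were spread over most of the table but not evenly. They ran from number 1560 to 40274, with a median gap of 484 between neighbours and a largest gap of 2543. Within 500 numbers of a left-out range lay 15 of the 49, or 30.6%, whereas 8.29% of the measured BGIOSGA identifiers outside the ranges lay that close. Of the 15, 10 were next to the range from 10224 to 10354, 4 next to that from 12710 to 13206 and 1 next to that from 36041 to 37534. They were 1.56% of the 640 measured identifiers this close to the first range, 0.561% of 713 at the second and 0.181% of 552 at the third. Outside the ranges as a whole, 49 of 22980 measured identifiers were members. The gathering was thus mostly beside the first range. Among the 15, BGIOSGA013229 lay 23 numbers and BGIOSGA010494 lay 140 numbers from the nearest range. The 34 farther away included BGIOSGA040274, BGIOSGA031350, BGIOSGA035102, BGIOSGA035110 and BGIOSGA027338. Without a read in 9311 were 8 of the 15 near a range and 12 of the 34 farther away. The ranges had been set from these same libraries, and identifier order is not a map position.

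**Figure D4:**
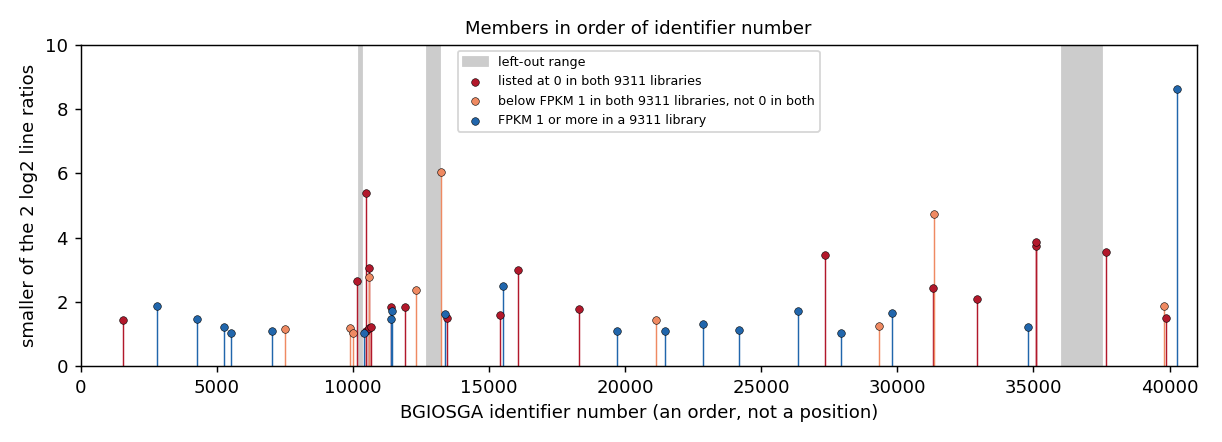
Members in order of BGIOSGA identifier number (horizontal), with the smaller of their 2 log2 line ratios (vertical), coloured by class in 9311; grey bands are the 3 ranges left out by the rule. A group of members stands beside the first band, where 10 lie within 500 numbers of it, and the tallest line is BGIOSGA040274 at 8.61.

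Some members had close neighbours. In 5 of the 48 gaps, the next member was 10 or fewer numbers away. BGIOSGA010484 and BGIOSGA010494 were 10 apart, and BGIOSGA010576, BGIOSGA010584 and BGIOSGA010587 followed one another within 11 numbers. BGIOSGA010576 was at an FPKM of 8.96 and 7.26 in DC90 and BGIOSGA010584 at 1.26 and 1.74, both without a read in 9311. From number 10355 to 10660, a stretch picked after its values were seen, 7 of 176 measured identifiers were members and 7 were lower in DC90 at both times. Over all 22980 measured identifiers outside the ranges, these numbers were 49 and 65. BGIOSGA035102 and BGIOSGA035110, both without a read in 9311, were 8 apart, and the second lay 931 numbers before the nearest left-out range. BGIOSGA011396 and BGIOSGA011403 were 7 apart but unlike in 9311, where the first was at 2.12 and 2.98 and the second had no read. In DC90 they were at 7.56 and 11.0, and at 2.55 and 5.59. Of all 49 members, 34 had no identifier that differed between lines at both times among the 5 measured identifiers on either side. In 11 members a flanking identifier was higher in DC90 at both times, and in 5 a flanking one was lower. Neither these counts nor the close gaps were set against all measured identifiers, so they do not show whether members stand alone or together.

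Genes that were higher in DC90 at both times inside the left-out ranges numbered 48, and 21 of them, or 43.8%, had no read in 9311. The corresponding share of the 49 members was 40.8%. Among the 65 identifiers lower in DC90 at both times outside the ranges, 19, or 29.2%, had no read in either DC90 library. The line ratio passed 4-fold at both times in 16 of the 49 members, 24 of the 48 inside the ranges and 15 of the 65 lower ones. These counts describe lists that the line ratios chose, and no test was made on them.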

How the data were processed

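The authors deposited 1 table of FPKM values for 4 libraries, per the file itself and its sample titles, which also matched columns to samples. The submitters' processing notes name HTSeq 0.6.1; the sources used here do not state the aligner, genome build or annotation. RNA of 3 replicates was pooled per library, per the labels' protocols, so no p-value was computed. Library totals and gene lengths were recovered from the steps of the FPKM values: the smallest length up to 30000 bases that made all reads whole, within 1e-09, was found for 30016 of 30016 BGIOSGA identifiers above 0. Reads are the smallest that fit, since reads and length can share a factor. The counting interval of a ratio is the exact (Clopper-Pearson) 95% interval computed from both libraries' reads, and a 0 was set at 3 reads per library. Both reflect counting error alone, as amplified reads do not stand for independent molecules. Ratios with a 0 took the reads of the other library as exact. FPKM ratios used a pseudocount of 1, which understates differences of low values; ratios given as folds used none. Background shares are over the BGIOSGA identifiers that reached an FPKM of 1 in a library compared. The members and the comparisons were chosen with earlier results of these data known. Named members were the 5 most abundant in DC90 per class in 9311, the 3 highest and lowest responses per line, the 4 largest differences of responses, those at the threshold, and those within 10 numbers of each other. Further members are named where a count of calls is spelled out or where a ratio rests on few reads, chosen after their values were seen. The rule and the recovery of reads were tested on simulated data. Python 3.11.15, numpy 2.4.6, pandas 2.3.3 and scipy 1.17.1 were used.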

Additional observations from a re-analysis of the deposited data

How the results depend on the processing

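The number of members depended on how low values were treated. It was 272 with a pseudocount of 0.1, which takes in all 49, 26 where the higher library had to reach an FPKM of 5, 30 with at least 20 reads in each DC90 library, and 16 at 4-fold. Either rescaling, by median-of-ratios factors or to equal FPKM sums, gave 47, all among the 49. Without identifiers within 500 numbers of a left-out range, chosen after seeing the data, 34 members were left, and those without a read in 9311 were 12 instead of 20. The counts of responses that follow are over the original 49 members, with the setting applied to the response and not to the choice of members. At 4-fold, 3 of the 49 were higher and 1 lower after chilling in DC90, and 2 were higher and 2 lower in 9311. The difference of responses was upward in 3 and downward in 0. With an FPKM of at least 5, 3 members instead of 6 were lower after chilling in 9311, and with a pseudocount of 0.1 the difference was downward in 10 instead of 4. The other counts stayed within 1.5 times. Equal sums moved the median log2 response of well-measured identifiers in DC90 by 0.10. Of 125 ratios of named members, 62 moved by 0.2 or more in log2 with a pseudocount of 0.1 and none under either rescaling. None of those past 2-fold changed sign, which the choice of members makes unlikely for line ratios. No paired analysis was possible because each line and time has 1 library. With any library left out, the rule could not be applied at both times.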
